A study of Mus musculus with 18 samples.

Results

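The genes followed here are 43 that define the hepatocyte or encode proteins the liver releases into blood, and they were measured by RNA sequencing in AML12, a mouse hepatocyte line derived from the liver of an animal carrying a human TGFα transgene. The 43 were chosen by name, as transcription factors of the hepatocyte, secreted carriers and protease inhibitors, coagulation factors, apolipoproteins with the proteins that assemble lipoproteins, and a few receptors and amino acid enzymes. All 43 were found by symbol among the 35551 gene IDs of the deposited tables. Synchronized AML12 cells were exposed to pemafibrate (Pema), an agonist of the nuclear receptor PPARα, or to its solvent DMSO. The groups were Pema T0 to T24, Pema T14 to T20 and Pema T24 to T30, each set against a DMSO group of the same window, with 3 libraries per group and 18 in all. The first window lasted 24 h and the other windows 6 h, so that harvest fell at T24, T20 and T30. The design text takes the long window as a reference, the window from T14 as mimicking day and the window from T24 as mimicking night. The sources used here give neither the dose of pemafibrate nor the method of synchronization. AML12 is a single line in continuous culture, without the other cells of a liver. The labels do not say what a replicate number stands for, so each p-value reflects only how far these libraries scatter, and that scatter may be technical.

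In the liver, hepatocyte identity is held by a network of transcription factors that activate each other and a shared set of target genes. HNF4A, the FOXA proteins, C/EBPα, HNF1, Onecut1 (HNF6) and Prox1 sit at its core, and the nuclear receptors Nr1h4 (FXR), Nr5a2 (LRH-1) and Nr0b2 (SHP) couple it to bile acid synthesis. Its targets include albumin, transport proteins, protease inhibitors, clotting factors and apolipoproteins, which make up much of the protein in plasma. Afp, the fetal relative of albumin, lies beside Alb in the genome and is mostly silent in adult liver. PPARα agonists act in liver chiefly on genes of fatty acid use, and several apolipoprotein genes, among them Apoa5 and Apoc3, are known as fibrate-responsive.

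Of the 43 genes, 28 reached a mean normalized signal of at least 10 over the 18 libraries, and the same 28 did so in each of the 3 tables. All 10 transcription factors were among them, as were 9 of 10 secreted carriers and inhibitors, against 5 of 12 apolipoprotein and assembly genes, 3 of 7 coagulation genes and 1 of 4 receptors and amino acid enzymes. The normalized signal is an estimated count scaled by the authors within a table and is not divided by transcript length, so levels are compared between libraries and not between genes. The sum over libraries ranged between 31461977 and 33884634, and the 43 genes took between 0.277% and 0.383% of it. Both hepatocyte markers given with the list were detected in every library. Alb, the main carrier protein of plasma, lay between 3124 and 7190 over the 18 libraries, and Apoe, a ligand for lipoprotein uptake, lay between 166 and 1006.

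The 15 genes below the minimum had several functions of the adult hepatocyte. The apolipoprotein genes Apoa1, Apoc3, Apoa4 and Apoa5, which lie next to each other on chromosome 9, were all below it, as were Apoa2, Apoh and Apom. Apoa1, the main protein of high density lipoprotein, came nearest, with a mean of 8.34 and a range of 2.96 to 15.8. Apoc3, an inhibitor of triglyceride clearance, was listed at 0 in 13 of 18 libraries and Apoa5, which promotes that clearance, in 12. Among clotting genes, F2 (prothrombin), F10 and Plg (plasminogen) were below the minimum, and F7 was listed at 0 in all 18 libraries. Asgr1 and Asgr2, the subunits of the asialoglycoprotein receptor that clears plasma glycoproteins, stayed at or below 2.11 and 5.55. Tdo2, which opens the tryptophan ring, reached a mean of 6.66, and Ahsg (fetuin-A) a mean of 8.00. The gene just above the minimum was Nr0b2, with a mean of 15.6. None of these 15 genes entered the main tests below, though some entered alternatives with another minimum or with a replicate left out.

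**Figure D1:**
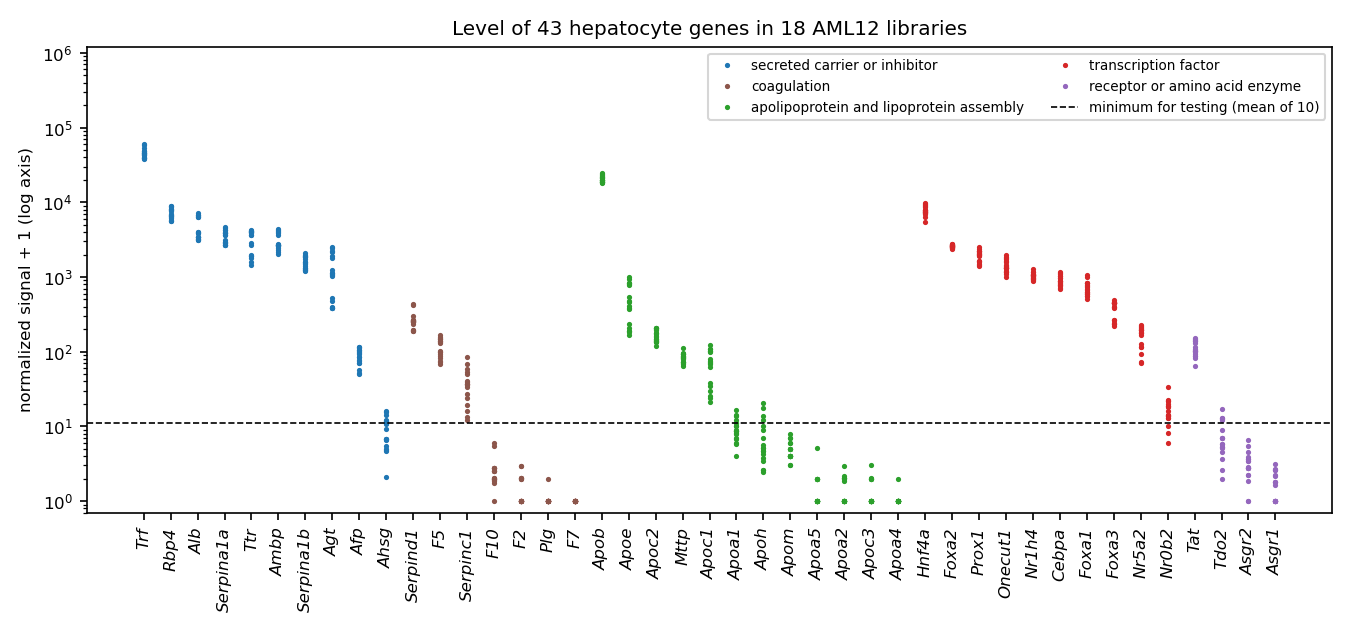
Normalized signal plus 1 (log axis) of the 43 genes, one point per library (n = 18), coloured by role, with a dashed line at the minimum mean of 10 used for testing. All 10 transcription factors lie above the line, whereas 7 of 12 apolipoprotein and assembly genes and 4 of 7 coagulation genes lie below it, F7 at 0 throughout. The signal is not per length, so heights are not comparable between genes.

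The promoters of Alb, Afp, Agt and Hnf4a are shown because these genes carry the differences described next: Agt and Alb were lower in some libraries, whereas Afp and Hnf4a were higher in the same libraries. Windows of 300 bases, 250 before and 50 after a RefSeq start site of the GRCm38.p6 build, are printed 5′ to 3′ on the gene's strand. They are the Alb window at chr5:90460620-90460919 (+ strand), the Afp window at chr5:90490464-90490763 (+), the Agt window at chr8:124569657-124569956 (− strand), and the 2 windows of Hnf4a at chr2:163546905-163547204 and chr2:163506607-163506906 (both +). Capitals mark matches to the HNF1 letters GTTAAT and the C/EBP letters TTGCNNAA, searched on both strands.
Alb: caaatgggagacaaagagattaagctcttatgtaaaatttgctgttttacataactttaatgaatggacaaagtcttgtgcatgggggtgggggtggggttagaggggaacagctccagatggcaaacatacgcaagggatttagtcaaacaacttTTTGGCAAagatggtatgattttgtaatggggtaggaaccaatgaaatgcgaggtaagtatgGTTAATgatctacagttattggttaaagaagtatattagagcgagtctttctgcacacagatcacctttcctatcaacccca
Afp: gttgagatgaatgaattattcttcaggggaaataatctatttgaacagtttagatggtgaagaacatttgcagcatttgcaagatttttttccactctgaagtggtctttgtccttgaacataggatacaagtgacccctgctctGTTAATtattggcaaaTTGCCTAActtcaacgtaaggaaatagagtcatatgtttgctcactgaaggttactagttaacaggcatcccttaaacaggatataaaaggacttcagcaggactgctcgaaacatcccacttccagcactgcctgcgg
Agt: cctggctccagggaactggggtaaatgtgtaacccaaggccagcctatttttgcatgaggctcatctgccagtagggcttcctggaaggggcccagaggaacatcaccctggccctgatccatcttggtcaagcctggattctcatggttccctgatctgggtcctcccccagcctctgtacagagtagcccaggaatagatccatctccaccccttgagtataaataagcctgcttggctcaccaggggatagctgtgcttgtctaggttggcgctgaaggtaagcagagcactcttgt
Hnf4a, first window: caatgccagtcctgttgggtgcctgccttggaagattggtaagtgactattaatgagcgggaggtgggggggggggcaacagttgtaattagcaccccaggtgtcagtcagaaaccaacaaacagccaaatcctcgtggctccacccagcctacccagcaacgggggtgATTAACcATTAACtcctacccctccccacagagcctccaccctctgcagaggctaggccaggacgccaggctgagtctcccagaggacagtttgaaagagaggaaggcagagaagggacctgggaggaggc
Hnf4a, other window: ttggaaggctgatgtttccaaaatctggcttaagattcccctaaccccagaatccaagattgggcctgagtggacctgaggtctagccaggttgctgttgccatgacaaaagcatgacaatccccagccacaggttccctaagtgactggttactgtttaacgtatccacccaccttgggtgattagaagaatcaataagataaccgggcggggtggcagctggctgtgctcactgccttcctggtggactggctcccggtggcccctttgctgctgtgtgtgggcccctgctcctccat

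The Alb and Afp windows each held an HNF1 and a C/EBP match, the first Hnf4a window held 2 HNF1 matches, and the Agt window held no match to any motif searched. Promoter windows were found for 38 of the 43 genes. The HNF1 letters occurred in the windows of 11 of these 38 genes (28.9%), against 8.24% of 27025 mouse genes with a window. These 11 were Alb, Afp, Serpina1a, Serpina1b, F2, Apoc2, Apoe, Hnf4a, Foxa2, Nr1h4 and Nr5a2. The C/EBP letters also occurred in 11 of the 38 (28.9%), against 12.2% of all genes. FOXA letters, TGTTTAC, occurred in 5 (13.2%), against 4.05%. The HNF4 letters CAAAGTCCA were in none of the 38, against 0.555% of all genes. The DR1 motif, a direct repeat bound by HNF4A and by PPARα with RXR, was also in none, against 0.0481%. The genes differ in how many windows they have, and a match is a string of letters, not a bound site.

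The largest differences among the 28 genes were between replicate numbers. Most secreted proteins and most transcription factors were lower in the libraries numbered 3 than in those numbered 1, while Afp and Hnf4a were higher. With all 18 libraries in 1 fit (limma on log2 of signal plus 1, group as a term), 19 of 28 genes (67.9%) passed an adjusted p of 0.05 between replicates 3 and 1, against 51.6% of all 13258 genes tested. The direction was uneven: 17 of the 28 (60.7%) were lower, against 24.8% of all genes, and 2 were higher, against 26.7%. The median log2 difference was -0.50 over the 28 genes and 0.00 over all genes, and 24 of the 28 differences were negative. Each number stands for 6 libraries, which may share a culture, so these p-values treat as independent what the labels do not call so. The sources used here do not say what else differed between replicate numbers.

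Among secreted carriers and inhibitors, 7 of 9 tested were lower in replicate 3 and 1 was higher. Agt encodes angiotensinogen, the precursor of angiotensin. Its lowest, median and highest signals were 384, 393 and 527 in replicate 3, 1027, 1101 and 1247 in replicate 2, and 1791, 2175 and 2542 in replicate 1. The 3 sets of Agt values did not overlap. The log2 difference of replicate 3 from replicate 1 was -2.34 ± 0.05 (SE, adjusted p = 4.3e-13 by limma), the smallest p of all 13258 genes, and that of replicate 2 from replicate 1 was -0.95 ± 0.05 (adjusted p = 6.6e-09).

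Alb had lowest, median and highest signals of 3124, 3231 and 3441 in replicate 3, 3405, 3896 and 4030 in replicate 2, and 6314, 6633 and 7190 in replicate 1. Replicate 1 was thus apart from both other numbers, which touched each other. The log2 difference was -1.03 ± 0.04 in replicate 3 (adjusted p = 3.9e-11) and -0.82 ± 0.04 in replicate 2 (adjusted p = 7.0e-10), each against replicate 1.

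Afp went the other way, with 92.3, 101 and 110 in replicate 3, 75.0, 92.8 and 114 in replicate 2, and 49.6, 62.9 and 76.8 in replicate 1. The replicate 3 values lay above all those of replicate 1, while those of replicate 2 overlapped both. Its log2 difference was 0.70 ± 0.11 in replicate 3 (adjusted p = 0.00011) and 0.61 ± 0.11 in replicate 2 (adjusted p = 0.00047), each against replicate 1. The neighbours Alb and Afp therefore differed in opposite directions between the same libraries.

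Ttr, the carrier of thyroid hormone and of retinol-binding protein, separated replicate 3 from both others. It had 1452, 1844 and 1988 in replicate 3, 2680, 3949 and 4049 in replicate 2, and 3643, 4094 and 4276 in replicate 1, a log2 difference of -1.17 ± 0.09 between replicates 3 and 1 (adjusted p = 8.8e-08). Its partner Rbp4, which carries retinol, had 5547, 5995 and 6664 in replicate 3, 6527, 6936 and 8637 in replicate 2, and 7572, 8129 and 8910 in replicate 1. The replicate 3 and replicate 1 values of Rbp4 did not overlap, and the log2 difference was -0.45 ± 0.06 (adjusted p = 1.4e-05).

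Ambp, the precursor of the protease inhibitor bikunin, followed the Alb pattern. It had 2325, 2629 and 2720 in replicate 3, 2002, 2631 and 2764 in replicate 2, and 3675, 4091 and 4341 in replicate 1, and its log2 difference from replicate 1 was -0.66 ± 0.04 in replicate 3 and -0.72 ± 0.04 in replicate 2. Serpina1a, an α1-antitrypsin that inhibits neutrophil elastase, had 2692, 2777 and 3695 in replicate 3, 2836, 3011 and 3850 in replicate 2, and 3932, 4213 and 4736 in replicate 1. Its paralog Serpina1b had 1212, 1301 and 1586 in replicate 3, 1235, 1443 and 1760 in replicate 2, and 1829, 1897 and 2067 in replicate 1. Both were lower in replicate 3 than in replicate 1 by a log2 difference of -0.50, but they are near-identical copies, so reads may have been split between them and the pair does not count as 2 independent observations. Trf, the iron carrier transferrin, was the exception in this role, with 37979, 39428 and 53355 in replicate 3, 42724, 46880 and 61144 in replicate 2, and 39988, 44559 and 46891 in replicate 1. These ranges overlapped, and its log2 difference of -0.05 (95% interval -0.18 to 0.07) between replicates 3 and 1 did not pass the test.

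Among the apolipoproteins, the neighbours Apoe and Apoc1 on chromosome 7 were the lowest relative to replicate 1. Apoe had 166, 188 and 233 in replicate 3, 376, 431 and 544 in replicate 2, and 788, 829 and 1006 in replicate 1. Apoc1, which inhibits lipoprotein uptake, had 20.3, 26.6 and 37.0 in replicate 3, 61.6, 69.8 and 78.3 in replicate 2, and 97.0, 105 and 120 in replicate 1. The 3 sets of values did not overlap for either gene. Between replicates 3 and 1 the log2 difference was -2.16 ± 0.08 for Apoe (adjusted p = 5.5e-11) and -1.91 ± 0.14 for Apoc1 (adjusted p = 6.0e-08).

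Apoc2, the cofactor of lipoprotein lipase in the same stretch of chromosome 7, did not share the order of Apoe and Apoc1. It had 118, 137 and 161 in replicate 3, 177, 203 and 207 in replicate 2, and 145, 153 and 177 in replicate 1, so that replicate 2 was highest. Its log2 difference was -0.20 ± 0.09 between replicates 3 and 1 (adjusted p = 0.067) and 0.33 ± 0.09 between replicates 2 and 1 (adjusted p = 0.0059). The genes of very low density lipoprotein assembly were not called between replicates 3 and 1 over all libraries. Apob, the scaffold protein of that particle, had 18095, 19384 and 24385 in replicate 3, 18626, 19838 and 23814 in replicate 2, and 19090, 21296 and 22390 in replicate 1, with a log2 difference of -0.04 (95% interval -0.15 to 0.06). By table the sign of Apob changed, with -0.24 over T0 to T24 (adjusted p = 0.0044), -0.03 over T14 to T20 (adjusted p = 0.53) and 0.14 over T24 to T30 (adjusted p = 0.075). Mttp, which loads lipid onto Apob, lay between 62.5 and 111 over all libraries, and its log2 difference of -0.16 ± 0.09 did not pass the test (adjusted p = 0.15).

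Of the coagulation genes, 2 of 3 tested were lower in replicate 3. F5, the cofactor of thrombin formation, had 67.0, 77.5 and 98.0 in replicate 3, 85.7, 140 and 156 in replicate 2, and 97.9, 139 and 166 in replicate 1, a log2 difference of -0.68 ± 0.16 between replicates 3 and 1 (adjusted p = 0.0019). Only the lowest replicate 1 value came within the replicate 3 range. Serpinc1, antithrombin, was low and scattered, with 11.1, 20.6 and 48.7 in replicate 3, 12.5, 35.2 and 66.8 in replicate 2, and 33.2, 45.2 and 84.0 in replicate 1. Its ranges overlapped and its log2 difference was -1.06 ± 0.27 (adjusted p = 0.0044). Serpind1, heparin cofactor II, had 187, 193 and 296 in replicate 3, 251, 263 and 433 in replicate 2, and 231, 257 and 263 in replicate 1, and did not pass the test between replicates 3 and 1 over all libraries (adjusted p = 0.082). By table its log2 difference was 0.12 over T0 to T24 (adjusted p = 0.41), but it was lower in replicate 3 over T14 to T20 (-0.36, adjusted p = 0.042) and over T24 to T30 (-0.46, adjusted p = 0.029). Tat, which starts tyrosine breakdown, was highest in replicate 2, with 63.0, 92.7 and 115 in replicate 3, 130, 140 and 153 in replicate 2, and 86.8, 100.3 and 109 in replicate 1. Its log2 difference from replicate 1 was 0.52 ± 0.10 in replicate 2 (adjusted p = 0.00082), with no overlap, and -0.14 ± 0.10 in replicate 3.

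The transcription factors split. Hnf4a, the central regulator of the set, was the only 1 of the 10 that was higher in replicate 3 than in replicate 1, and 6 were lower. Hnf4a had 7871, 9049 and 9662 in replicate 3, 5476, 7582 and 8574 in replicate 2, and 7013, 7219 and 7546 in replicate 1. All 6 replicate 3 values lay above all 6 of replicate 1, a log2 difference of 0.28 ± 0.05 (adjusted p = 0.00052). By median, Hnf4a was therefore highest in replicate 3, where the medians of Alb, Ttr, Agt and Apoe were lowest. The order did not hold library by library. The DMSO T0 to T24 library of replicate 3 had the lowest Alb (3124) and Ttr (1452) of all. Its Hnf4a was 7949, below the 8574 of the Pema T14 to T20 library of replicate 2.

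The 3 FOXA genes, which open chromatin at liver enhancers, behaved differently from each other. Foxa3 had 220, 240 and 266 in replicate 3, 387, 452 and 494 in replicate 2, and 400, 450 and 462 in replicate 1, with no overlap between replicate 3 and the others, and a log2 difference of -0.86 ± 0.07 between replicates 3 and 1 (adjusted p = 1.2e-07). Foxa1 was lower in replicates 3 and 2 alike, with 506, 612 and 684 in replicate 3, 555, 607 and 839 in replicate 2, and 743, 823 and 1061 in replicate 1. Its log2 difference was -0.50 ± 0.07 in replicate 3 and -0.42 ± 0.07 in replicate 2. Foxa2 had the narrowest relative range of the 28 genes, between 2362 and 2748 over all 18 libraries, with a log2 difference of 0.03 (95% interval -0.04 to 0.10) between replicates 3 and 1.

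Nr5a2, which activates bile acid synthesis, had 70.0, 103 and 127 in replicate 3, 167, 205 and 219 in replicate 2, and 176, 192 and 230 in replicate 1. Replicate 3 was below both others without overlap, at a log2 difference of -1.01 ± 0.13 from replicate 1 (adjusted p = 1.6e-05). Prox1, a homeobox factor needed for hepatocyte migration in the embryo, had 1384, 1540 and 1656 in replicate 3, 1884, 1993 and 2244 in replicate 2, and 2056, 2178 and 2553 in replicate 1 (log2 difference -0.54 ± 0.06). Onecut1, a regulator of liver and bile duct development, had 1101, 1256 and 1454 in replicate 3, 994, 1306 and 1382 in replicate 2, and 1593, 1757 and 1972 in replicate 1 (log2 difference -0.49 ± 0.08). Prox1 thus set replicate 3 apart and Onecut1 set replicate 1 apart. Cebpa, a factor of the mature hepatocyte that restrains division, had 683, 765 and 830 in replicate 3, 804, 1067 and 1167 in replicate 2, and 868, 931 and 1035 in replicate 1 (log2 difference -0.31 ± 0.07). The bile acid receptor Nr1h4 had 930, 1037 and 1095 in replicate 3, 870, 1113 and 1276 in replicate 2, and 908, 1027 and 1104 in replicate 1, with a log2 difference of 0.01 (95% interval -0.08 to 0.10). Nr0b2, a repressor induced by that receptor, stayed between 5.04 and 32.8 and did not pass the test between replicates 3 and 1.

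**Figure D2:**
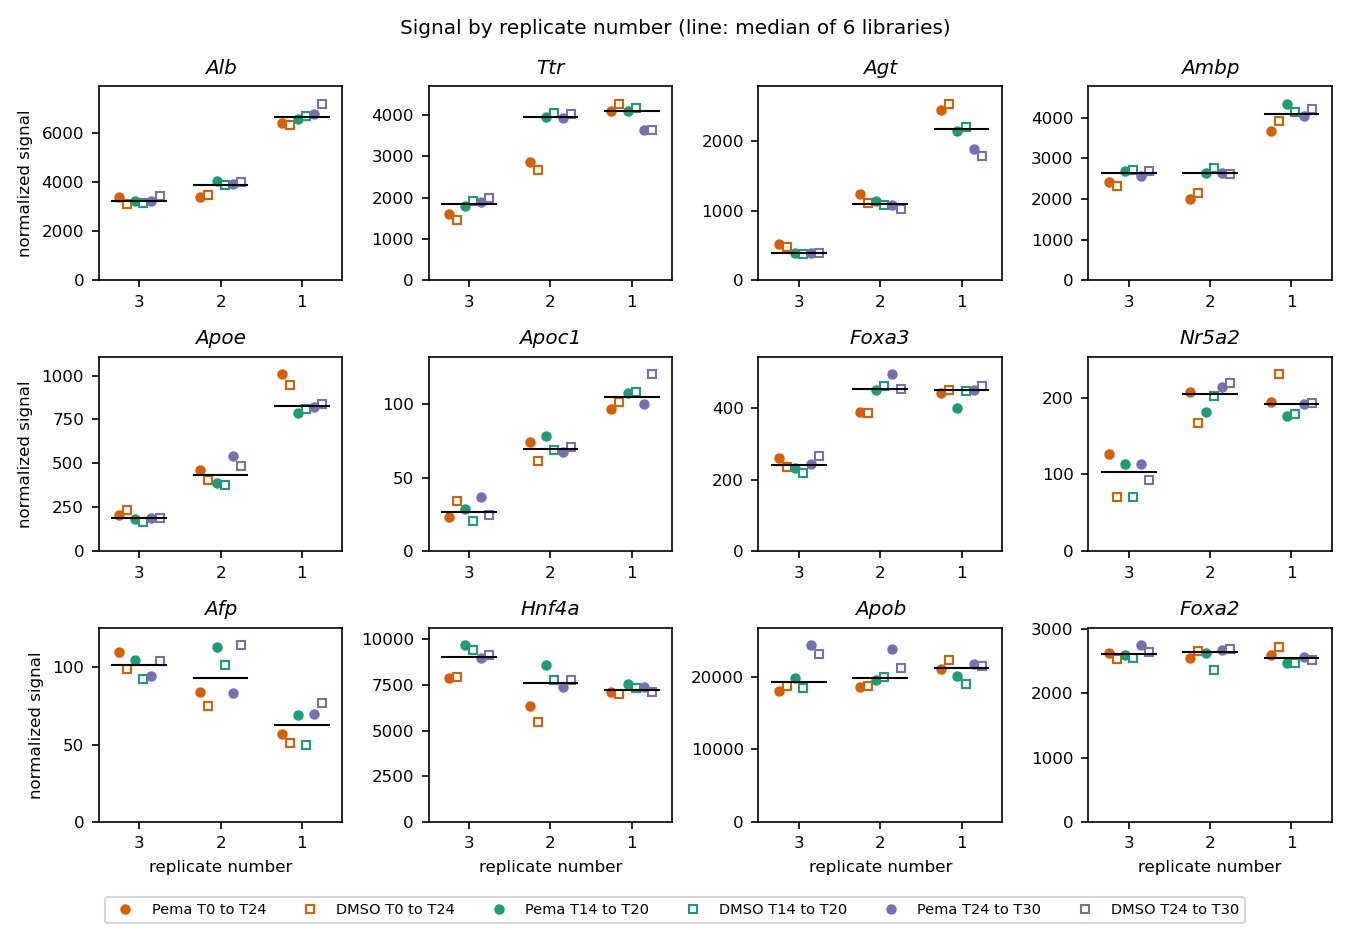
Normalized signal (linear axis from 0) of 12 of the genes in each library by replicate number, filled circles for Pema and open squares for DMSO, coloured by window, with a line at the median of 6 libraries. Agt, Apoe and Apoc1 fall in 3 separate levels, Alb and Ambp set replicate 1 above both others, and Ttr, Foxa3 and Nr5a2 set replicate 3 below both others. Afp and Hnf4a have their highest median in replicate 3, where both overlap replicate 2, and Apob and Foxa2 overlap throughout.

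Counted without a model, 15 of 28 genes had all 6 replicate 3 values below all 6 of replicate 1 (53.6%, against 9.59% of all genes), and 2, Afp and Hnf4a, had all 6 above (7.14%, against 11.1%). Replicate 2 took a place of its own. Against replicate 1, 14 of 28 genes passed the test (50%, against 45.2% of all genes), 10 lower (35.7%, against 22.4%) and 4 higher (14.3%, against 22.7%), namely Afp, Tat, Apoc2 and Trf. Non-overlap was found for 8 lower genes (28.6%, against 7.29%) and for 1 higher, Tat (3.57%, against 8.39%). Between replicates 3 and 2, 18 genes passed (64.3%, against 44% of all genes), 17 lower, against 21.5% of all genes, and 1 higher, Hnf4a, against 22.5%. Of these, 9 lower genes did not overlap (32.1%, against 9.09%), and 0 higher genes, against 11.3%. Serpind1, F5, Mttp, Foxa3, Cebpa, Nr5a2 and Nr0b2 were among those called between replicates 3 and 2, whereas Ambp, Foxa1 and Onecut1 were called between replicates 2 and 1.

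**Figure D3:**
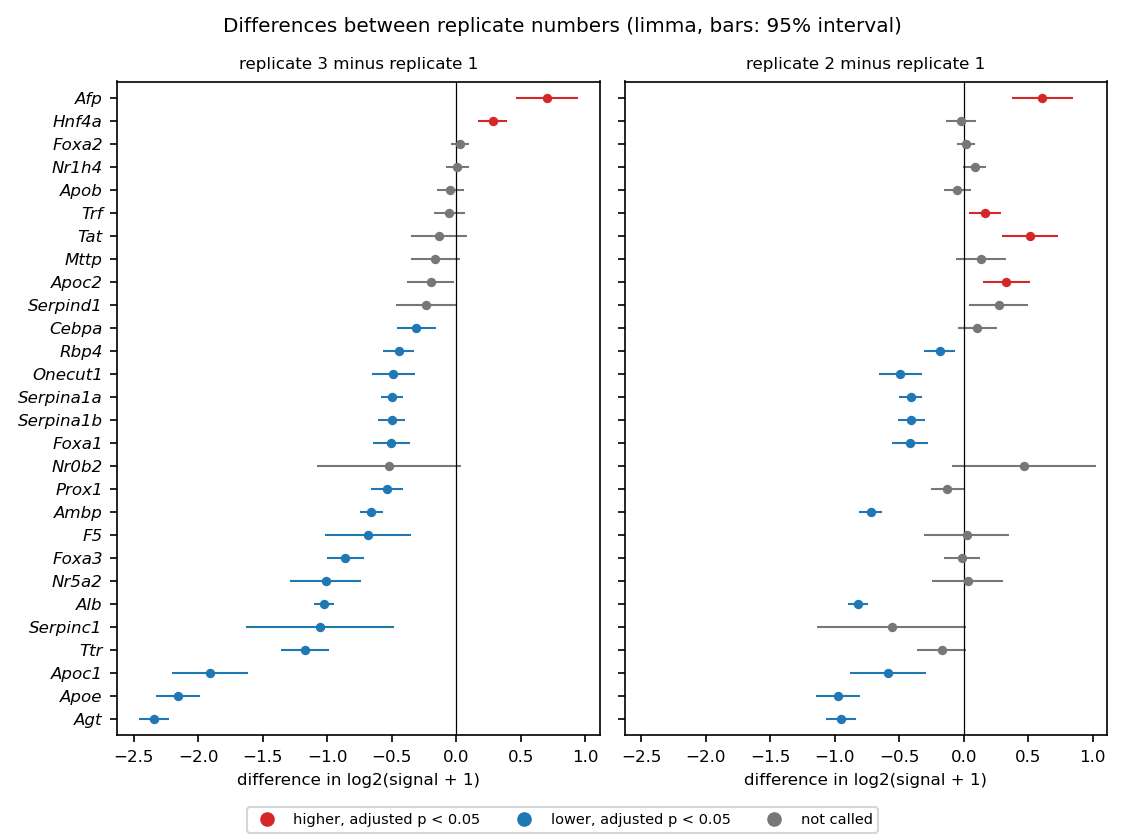
Log2 differences (signal plus 1) of the 28 tested genes between replicates 3 and 1 (left) and replicates 2 and 1 (right), with 95% intervals from limma; red is higher and blue is lower at an adjusted p under 0.05, grey is not called. On the left 17 genes are lower, down to -2.34 for Agt, and 2 are higher; on the right 10 are lower and 4 are higher.

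Fitted in each table alone, 13 of the 19 genes called between replicates 3 and 1 passed in all 3 tables. All 19 kept their direction. Each table is part of the fit over all libraries, so some of this agreement follows from shared libraries. How many of all called genes passed in each table or kept their direction was not counted. By single table, in order of window start, 67.9%, 67.9% and 57.1% of the 28 genes passed, against 38.2%, 39.1% and 20.1% of all genes. For the 24 h table, the table from T14 and the table from T24 in that order, the log2 difference of Agt was -2.32, -2.47 and -2.24, that of Alb -0.96, -1.06 and -1.06, and that of Apoe -2.14, -2.19 and -2.13. Afp gave 0.94, 0.74 and 0.43, of which the last did not pass the test (adjusted p = 0.13). Hnf4a gave 0.17, 0.36 and 0.32, of which the first did not (adjusted p = 0.071). The other 4 genes that did not pass in every table were F5 (-1.15, -0.67 and -0.23), Onecut1 (-0.66, -0.58 and -0.22), Cebpa (-0.41, -0.37 and -0.14) and Serpinc1 (-1.32, -0.45 and -1.40). Of the 9 genes not called over all libraries, 5 had opposite signs in different tables, namely Trf, Serpind1, Apob, Foxa2 and Tat. Trf gave 0.14, -0.08 and -0.22, of which the last passed (adjusted p = 0.048). For Serpind1, Trf, Hnf4a and Ttr, named after their values were seen, the T0 to T24 libraries of replicates 3 and 2 stood apart from the other libraries of their own number. The tables were normalized separately, so these levels are described without a test. Serpind1 was 254 (Pema) and 296 (DMSO) there in replicate 3, against 187 to 193 in the other 4 libraries, and 426 and 433 in replicate 2, against 251 to 265. Trf was 53355 and 48061 there in replicate 3, against 37979 to 39445, and 61144 and 57797 in replicate 2, against 42724 to 48061. Hnf4a and Ttr were lower there. Hnf4a was 7871 and 7949 in replicate 3, against 8945 to 9662, and 6357 and 5476 in replicate 2, against 7397 to 8574. Ttr was 1609 and 1452 in replicate 3, against 1793 to 1988, and 2863 and 2680 in replicate 2, against 3941 to 4049. In replicate 1 the T0 to T24 values of Serpind1, Trf and Ttr overlapped those of the other libraries, while Hnf4a was 7083 and 7013 there, against 7115 to 7546. Further members also stood apart there, in all 3 replicate numbers. Serpina1a was 4553 (Pema) and 4736 (DMSO) in replicate 1, against 3932 to 4228. It was 3836 and 3850 in replicate 2, against 2836 to 3083, and 3695 and 3689 in replicate 3, against 2692 to 2857. Ambp and Nr1h4 were lower there in each number, Nr1h4 at 908 and 957 in replicate 1, against 1026 to 1104. Without the T0 to T24 table, an alternative added after the data were seen, 21 genes passed between replicates 3 and 1 (75%, against 42.2% of all genes), 16 between replicates 2 and 1 (57.1%, against 41.7%) and 19 between replicates 3 and 2 (67.9%, against 41.4%). Trf then no longer passed between replicates 2 and 1 (log2 difference 0.06, adjusted p = 0.31).

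Other lists of liver genes, named from general knowledge, were set beside these. These lists and the marker lists below were chosen with earlier results of these data known. Their shares are therefore no independent support for the differences above. Over all genes tested, 24.8% were lower and 26.7% higher in replicate 3 than in replicate 1. Of 24 further secreted protein genes at or above the minimum, 12 (50%) were lower and 2 (8.33%) higher in that comparison. Among the lower were Itih2 (log2 difference -0.70), Gc (-0.50), Proc (-0.74) and Hgfac (-0.41). Of 23 further liver transcription factors, 13 (56.5%) were lower and 2 (8.7%) higher. Nr1i2 (-0.99), Hhex (-0.37) and Onecut2 (-0.37) were among the lower. Only 12 of 35 hepatocyte enzyme and transporter genes reached the minimum, and 5 (41.7%) were lower and 3 (25%) higher. Sult1a1 (-1.44) and Cyp27a1 (-0.69) were among the lower. Of 5 fetal liver genes tested, 2 (40%) were higher, Igf2bp3 (0.45) and Igf2bp1 (0.44), and 1 (20%) was lower, Peg3 (-0.26). Of 9 biliary or progenitor genes tested, Krt7 (0.22) and Krt8 (0.11) were higher (22.2%), while 3 (33.3%), with Sox9 (-0.53) among them, were lower. Calls in either direction made up 55.6% of this list, near the 51.6% of all genes.

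Markers of other cells were counted in the same way. Of 13 mesenchymal or stellate genes, 6 reached the minimum. Of these 6, 4 were higher in replicate 3 than in replicate 1 (66.7%, against 26.7% of all genes) and none was lower (against 24.8%). The 4 were Dcn (log2 difference 1.20), Col1a1 (1.12), Vim (0.29) and Postn (0.29). The summed signal of the 13 was 31919 to 34362 in replicate 3, 25318 to 27857 in replicate 2 and 26385 to 28189 in replicate 1, nearly all of it from Vim, which cultured epithelial cells also express. Without Vim the sum was 380 to 521 in replicate 3, 358 to 478 in replicate 2 and 299 to 370 in replicate 1. Col1a2, Col3a1, Pdgfrb, Lum, Thy1, Lrat and Reln were below the minimum, and none of the 13 was at 0 throughout. Endothelial genes summed to 26.5 to 49.2 in replicate 3, 32.9 to 49.7 in replicate 2 and 41.5 to 69.9 in replicate 1. Of the 2 tested, 1 was lower (50%, against 24.8% of all genes). Macrophage and leukocyte genes summed to 213 to 339 in replicate 3, 270 to 352 in replicate 2 and 224 to 367 in replicate 1, none of the 3 tested passed, and Adgre1 and Clec4f were at 0. The part of any of these lists in the differences among the hepatocyte genes was not tested.

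Pemafibrate left the 28 genes without a called difference in any window. In the paired fits within each table, 0 of 28 genes passed limma at an adjusted p of 0.05 over T0 to T24 (against 0.0525% of all genes), over T14 to T20 (against 0.0379%, of which 0.0303% higher and 0.00757% lower) and over T24 to T30 (against 0.0378%). With all windows in 1 fit of 9 pairs, 0 of 28 passed, against 0.189% of all genes (0.181% higher and 0.00754% lower). For the difference between the T14 to T20 and T24 to T30 effects 0 of 28 passed, against 0% of all genes. With so few calls among all genes, a count of 0 in 28 says nothing particular about these genes. At an unadjusted p under 0.05 there were 2, 1 and 0 of 28 genes in the 3 windows in that order, 2 over all windows and 1 for the difference, against 5.17%, 8.14%, 7.51%, 6.45% and 9.24% of all genes. The median log2 difference of Pema from DMSO over the 28 genes was 0.04, 0.02 and 0.01 in the 3 windows. No other tool was run, since the deposited values are not counts.

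Over T0 to T24 the smallest p was that of Onecut1. It had 1972, 1183 and 1322 in the Pema libraries and 1847, 994 and 1101 in the DMSO libraries, each in the order of replicates 1 to 3. Every pair was higher in Pema while the groups overlapped, and the log2 difference was 0.20 ± 0.06 (adjusted p = 0.78). Prox1 had 2553, 1983 and 1640 in Pema and 2367, 1884 and 1492 in DMSO (log2 difference 0.11 ± 0.04, adjusted p = 0.95). The next by p were F5 (log2 difference 0.29 ± 0.15) and Mttp (0.26 ± 0.14). The bile acid receptor Nr1h4 was the only gene of the 28 with a window in which Pema and DMSO values did not overlap. It had 908, 870 and 930 in Pema and 957, 959 and 941 in DMSO over T0 to T24. Non-overlap to the lower side was seen in 1.35% of all genes in that window and to the higher side in 1.61%. In the other windows 0 of 28 genes failed to overlap, against 1.82% higher and 1.36% lower of all genes over T14 to T20, and 2.08% higher and 2.13% lower over T24 to T30.

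Over T14 to T20 the smallest p was that of Serpinc1, with 36.3, 26.0 and 23.0 in the Pema libraries and 58.5, 35.5 and 48.7 in the DMSO libraries. It was lower in Pema in 3 of 3 pairs with overlapping groups, at a log2 difference of -0.72 ± 0.22 (adjusted p = 0.53), and over T24 to T30 the same gene had 38.7, 34.9 and 11.1 in Pema and 33.2, 12.5 and 15.2 in DMSO. Afp had 69.02, 113 and 105 in Pema and 49.6, 101 and 92.3 in DMSO over T14 to T20 (log2 difference 0.27 ± 0.15). Over T24 to T30 it had 69.7, 83.1 and 94.5 in Pema and 76.8, 114 and 104 in DMSO (log2 difference -0.24 ± 0.15). Afp was thus higher in every Pema library than in its pair in the window that mimics day and lower in every pair in the window that mimics night. It was also higher in 3 of 3 pairs over T0 to T24, with 56.7, 84.3 and 110 in Pema and 50.9, 75.0 and 98.8 in DMSO. The difference between the T14 to T20 and T24 to T30 effects was 0.51 ± 0.18 on the log2 scale, and it did not pass (adjusted p = 0.45). The next by p for that difference were Serpinc1 (-1.12 ± 0.53), Alb (0.09 ± 0.05) and Tat (0.28 ± 0.16), none of which passed. Over T14 to T20 alone, Hnf4a differed by 0.07 ± 0.03 and Apob by 0.06 ± 0.03, likewise short of the threshold.

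Over T24 to T30 the smallest p was that of Apob, with 21775, 23814 and 24385 in Pema and 21503, 21289 and 23190 in DMSO (log2 difference 0.08 ± 0.04, adjusted p = 0.67). Alb in that window had 6768, 3904 and 3230 in Pema and 7190, 4001 and 3441 in DMSO, lower in each pair, with a log2 difference of -0.07 (95% interval -0.15 to 0.01). Nr1h4 differed by -0.08 ± 0.05 in the same window. The spread of Alb between replicate numbers was far wider than its difference between Pema and DMSO in any pair.

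Over all windows the smallest p was that of Nr1h4, lower in Pema in 9 of 9 pairs at a log2 difference of -0.08 ± 0.03 (adjusted p = 0.63). Genes lower in 9 of 9 pairs made up 0.302% of all genes and genes higher in 9 of 9 pairs 0.483%. Onecut1 was higher in 8 of 9 pairs at 0.09 ± 0.03 (adjusted p = 0.70). Agt differed by 0.05 ± 0.03. Nr5a2 differed by 0.18 ± 0.11, and its pairs did not go together. In the pairs of replicate 3 it had 127, 113 and 113 in Pema and 71.0, 70.0 and 92.1 in DMSO over the 3 windows, whereas 5 of the 6 pairs of replicates 1 and 2 were lower in Pema. Alb, named here for its standing and not by rank, had an all-window log2 difference of 0.00 (95% interval -0.05 to 0.05). In the other gene lists, marker lists of other cells included, 0 genes passed over all windows. The fibrate-responsive Apoa5, Apoc3, Apoa1 and Apoa2 were below the minimum and did not enter these fits. Fits without the minimum took them in. There 0 of 41, 41 and 40 members passed in the 3 windows, against 0% of all genes in each. Over all windows 0 of 42 passed, against 0.104%. Small differences cannot be resolved at these levels.

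**Figure D4:**
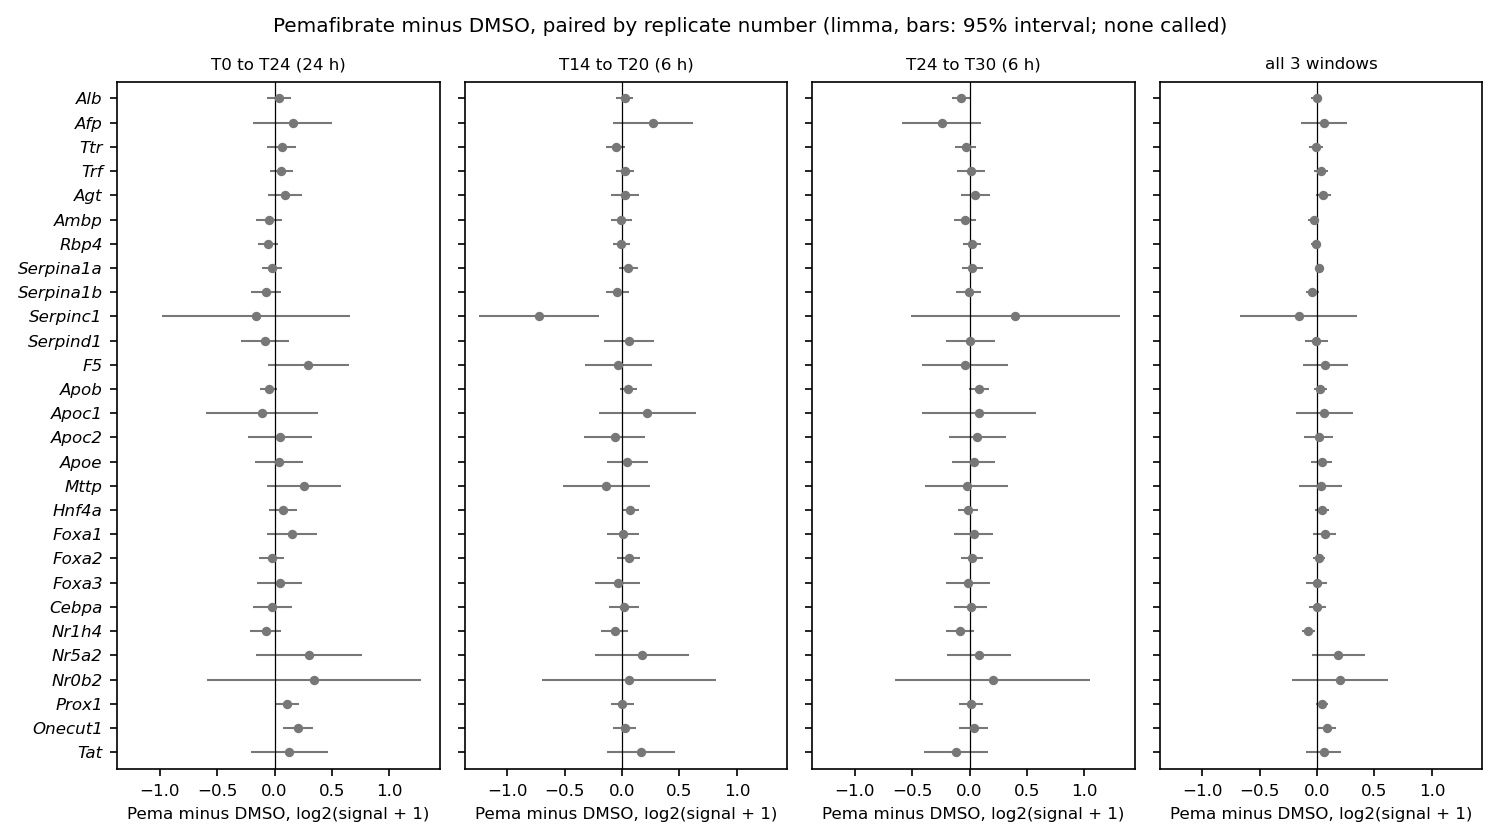
Log2 differences (signal plus 1) of Pema from DMSO for the 28 tested genes in each of the 3 windows and over all windows, paired by replicate number, with 95% intervals from limma. No gene is called, most intervals include 0, and the widest belong to the low-signal genes Serpinc1 and Nr0b2.

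Harvest time was followed in the 9 DMSO libraries, in the order T20, T24 and T30. Tables were normalized separately, and the T24 cells had been under DMSO for 24 h rather than 6 h, so levels are described without a test and time and exposure length cannot be told apart. Trf had 39988, 45698 and 39205 at T20, 46891, 57797 and 48061 at T24, and 46323, 42724 and 39410 at T30, for replicates 1 to 3. Trf was highest at T24 in all 3 replicate numbers and did not overlap with T20 or with T30, though T24 and T30 were close in replicate 1 (46891 and 46323). Serpind1 had 231, 253 and 193 at T20, 253, 433 and 296 at T24, and 263, 251 and 192 at T30. Its T24 values lay above all those of T20, but only just, at 253.3 in replicate 1 at T24 against 252.6 in replicate 2 at T20. Nr1h4 went the other way, with 1027, 1151 and 1073 at T20, 957, 959 and 941 at T24, and 1104, 1276 and 1095 at T30, lowest at T24 with no overlap with either other time.

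Between T30 and T20, Apob and Serpinc1 did not overlap. Apob had 19090, 20017 and 18434 at T20, 22390, 18749 and 18830 at T24, and 21503, 21289 and 23190 at T30, highest at T30 relative to T20. Serpinc1 had 58.5, 35.5 and 48.7 at T20, 84.0, 66.8 and 18.3 at T24, and 33.2, 12.5 and 15.2 at T30, lowest at T30. Foxa1, chosen after its values were seen, was higher at T30 than at T24 by a log2 difference of 0.41, 0.43 and 0.43 in replicates 1 to 3, although its groups overlapped because replicate 1 was higher throughout.

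Counts of genes without overlap were small in each comparison. Between T24 and T20 they were 2 genes higher (against 2.29% of all genes) and 1 lower (against 4.33%). Between T30 and T20 they were 1 higher (against 4.43%) and 1 lower (against 3.28%). Between T30 and T24 they were 1 higher (against 8.87%) and 1 lower (against 5.5%). In each of the 3 comparisons 13 of 28 genes went the same way in all 3 replicate numbers, against 37.5%, 36.9% and 43.8% of all genes.

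**Figure D5:**
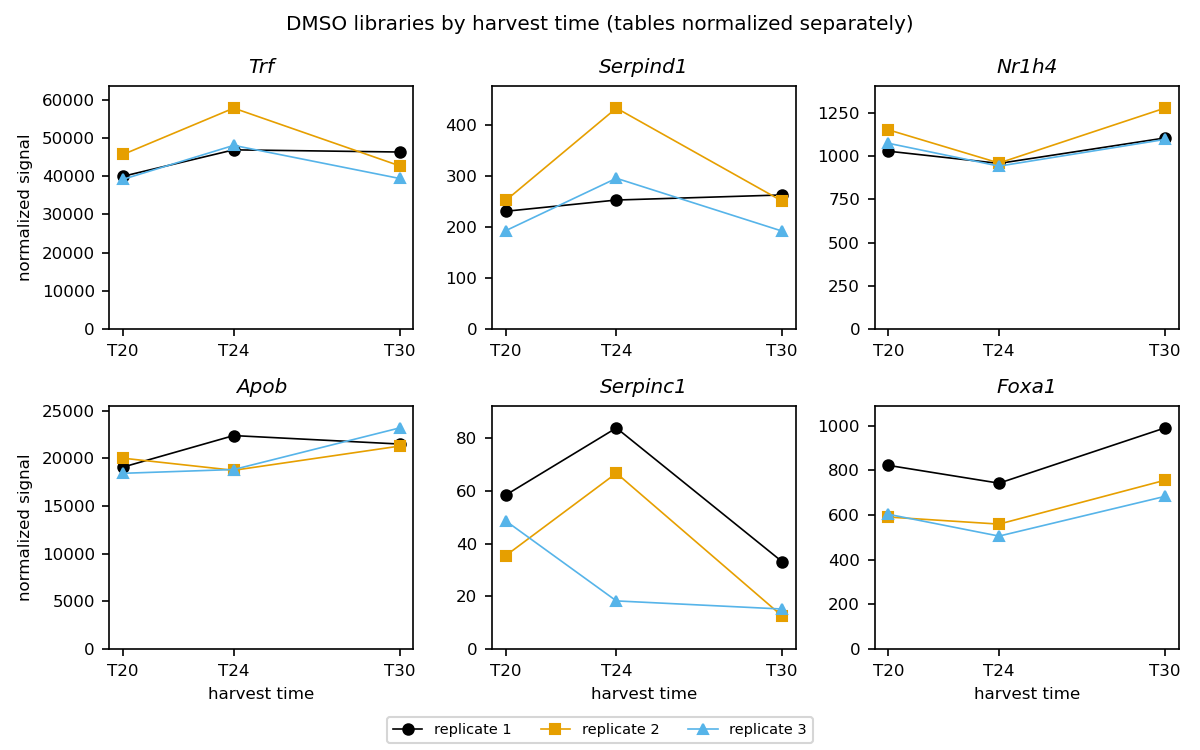
Normalized signal (linear axes from 0) of 6 genes in the 9 DMSO libraries at T20, T24 and T30, one line per replicate number. Trf peaks at T24 (46891 to 57797) and Nr1h4 is lowest there (941 to 959), Apob and Serpinc1 separate T30 from T20, and Foxa1 is higher at T30 than at T24 in all 3 replicate numbers. The tables were normalized separately.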

How the data were processed

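Poly(A) RNA of 18 AML12 samples was made into strand-marked libraries, per the labels' protocols. The authors deposited 1 table per window holding a normalized signal per Ensembl gene, estimated counts scaled within the table, whose column names end like a salmon output. For the aligner version, build, annotation and scaling method: not given in the sources used here. Steps of the low values gave whole reads for 56.5% to 74.4% of values (tolerance 0.05, up to 8 reads), so counts were not recovered, the depth is unknown and no count test was run. Of 35551 IDs, 35181 had a symbol.

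Values were taken as log2(signal + 1), which understates changes of low genes. A mean of 10 or more was required, and genes were fitted with limma 3.58.1 in R 4.3.3 (eBayes with a trend), and p-values were adjusted by Benjamini-Hochberg over all genes tested. Pema was compared with DMSO within tables with the replicate number as a block. Deviations from group means correlated at 0.31 to 0.64 for libraries sharing a number within a window and at -0.44 to -0.11 otherwise. Deviations within a group sum to 0, so the negative values follow largely from the positive ones and are no separate evidence. The pairing by number rests on the positive correlations and the titles. Replicate numbers were compared over all 18 libraries with group as a term. The fits were tested on simulated data. Members, gene lists and comparisons were chosen with earlier results of these data known. Named genes were all members called in a contrast or with a mean of at least 100, the 4 of smallest p in each Pema contrast, and at most 4 per other list. Alternatives covered the pseudocount, the minimum, scaling, trend, block, single tables and left-out replicates. Promoter windows came from RefSeq (GRCm38.p6), and entries for the other genes were not used here. Results for 2 genes of the other lists are not reported here.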

Additional observations from a re-analysis of the deposited data

How the results depend on the processing

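For Pema against DMSO, the count of called members was 0 in each window, over all windows and for the difference between windows under every alternative run. The members tested numbered between 26, at a mean of at least 50, and 42, without a minimum. Over all genes 0% to 0.217% passed in these alternatives. The count was 0 to 0 when a replicate was left out. Without the block, where pairing by replicate number is dropped, it was likewise 0, while over all genes 7, 5 and 5 passed in the 3 windows and 25 over all of them with the block, against 0, 0, 0 and 2 without it. Nr5a2 over all windows ranged between -0.026 and 0.32 on the log2 scale when a replicate was left out, and it changed sign without replicate 3 (-0.026, adjusted p = 0.999). Between replicates 2 and 1, 9 genes passed in the 9 DMSO libraries alone (32.1%, against 18.3% of all genes), against 14 in all 18 (50%, against 45.2%), with fewer libraries in the fit, and Rbp4 changed sign in the T0 to T24 table alone (log2 difference 0.029, adjusted p = 0.68); the cause was not tested. Counts over all alternatives were 16 to 21 between replicates 3 and 1 (47.6% to 75% of members tested, against 20.1% to 54.9% of all genes). They were 9 to 16 between replicates 2 and 1 (32.1% to 57.1%, against 18.3% to 48.4%). Between replicates 3 and 2 they were 12 to 19 (42.9% to 67.9%, against 20.5% to 48.4%). The number of members tested varied with the setting, between 26 and 42. Single genes lost their call 9, 19 and 17 times in those comparisons and kept it 199, 134 and 180 times, with no other change of direction. Rescaling the DMSO libraries added Foxa2 to the genes not overlapping between T24 and T20, making 4. With 3 libraries a group and unknown depth, small differences in low genes such as Nr0b2 and Serpinc1 cannot be resolved.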
